A study of Homo sapiens with 2 samples.

Results

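The expression table of the study held 86 unnamed loci shorter than 400 bp among its 28658 rows. They were chosen by rule as the rows that carry no gene symbol and whose end minus start is under 400 bp. No expression value was used in that rule. An unnamed row exists only where reads were assembled, so a locus may have entered through the library where it is higher. Differences between the libraries below may not be free of this. The 86 loci measured 167 to 397 bp and lay on 20 chromosomes, most often on chromosome 7, which held 10 of them. The remaining rows were 1565 unnamed loci of 400 bp or more and 27007 rows with a gene symbol. RNA came from PLC/PRF/5, an established human hepatocellular carcinoma line, and both cultures were kept in hypoxia. The genotype labels were EV, the empty vector control, and NFX1_OE, overexpression of NFX1, a zinc finger transcription factor. Each group was 1 library, so differences below compare 2 libraries and have no replicate check. How NFX1 was delivered, whether the cells were a clone and how long hypoxia lasted are not given in the sources used here.

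An unnamed locus in such a table is a place where aligned reads were assembled into a transcript that matched no annotated gene. Divergent transcripts made from the promoter of a neighbouring gene, enhancer transcripts, transcribed repeats and unspliced fragments of longer RNAs can all appear in this way. The unit was FPKM, the number of fragments divided by transcript length and by library size. In the Cufflinks family of programs the length in that formula is an effective length, the number of positions at which a fragment of the library could lie inside the transcript, and it shrinks fast once a transcript is about as short as the fragments themselves.

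The promoter sequences of TMEM160 and UBE2J2 are shown because 22 of the 86 loci lay less than 1 kb before the start of a gene, and for these 2 genes the span in the table was the same length as in RefSeq. TMEM160 encodes a small membrane protein and UBE2J2 a ubiquitin-conjugating enzyme of endoplasmic reticulum protein degradation. Each run gives the 250 bases before the gene's start from RefSeq on GRCh38.p14, minus strand, 5′ to 3′. Capitals mark the bases at those distances from the start that the unnamed locus has in the table on hg19, and the locus goes on upstream of what is printed.
TMEM160 (chr19:47048625-47048874): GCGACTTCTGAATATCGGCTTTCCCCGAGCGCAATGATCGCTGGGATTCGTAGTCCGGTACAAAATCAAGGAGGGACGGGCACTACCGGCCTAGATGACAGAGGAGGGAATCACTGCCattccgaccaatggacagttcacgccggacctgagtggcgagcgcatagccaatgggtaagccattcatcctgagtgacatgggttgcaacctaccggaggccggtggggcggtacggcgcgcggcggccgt
UBE2J2 (chr1:1273855-1274104): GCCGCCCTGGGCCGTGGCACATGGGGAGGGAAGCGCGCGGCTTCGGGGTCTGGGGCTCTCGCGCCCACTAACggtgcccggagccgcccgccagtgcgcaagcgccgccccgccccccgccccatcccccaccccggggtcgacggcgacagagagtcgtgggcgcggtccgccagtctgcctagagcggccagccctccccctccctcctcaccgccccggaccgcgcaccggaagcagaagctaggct
The locus of TMEM160 (hg19 chr19:47552015-47552297) ran from 133 to 415 bp before the gene's start, which puts 118 bases in capitals. The locus of UBE2J2 (hg19 chr1:1209413-1209792) ran from 179 to 558 bp before the start, which puts 72 bases in capitals. Sequences of the loci themselves were not analysed here, since no genome of build hg19 was used.

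The targeted gene and cell markers were checked first. NFX1 was at FPKM 4.21 in the vector library and 56.0 in the NFX1 library, and no unnamed short locus lay inside it. All 15 hepatocyte and hepatoma markers reached FPKM 1, against 0 of 6 fibroblast and 0 of 4 endothelial markers. The summed FPKM was 0.917 in the vector and 1.04 in the NFX1 library for the fibroblast markers, and 0.0587 and 0.0565 for the endothelial ones, of which 2 were at 0 in both. Of 7 blood markers 3 reached FPKM 1, with sums of 107 and 114 and 2 at 0 in both libraries.

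The shorter the locus, the more FPKM a single fragment was worth. At a given length the FPKM values were, with few exceptions, whole multiples of a single step, which was taken as the FPKM of 1 fragment there. The check covered values up to 30 fragments from 190 to under 400 bp, short named rows included and the 397 bp start left out. There 74 of 75 in the vector and 71 of 72 in the NFX1 library were whole within 0.1 fragment. Loci under 190 bp were not part of it. In the vector library the step was 0.220 at 397 bp, 0.734 at 300 bp, 2.54 at 250 bp, 16.2 at 203 bp and 212 at 167 bp. In the NFX1 library it was 0.192, 0.631, 2.08, 11.8 and 137 at the same lengths. From 397 down to 167 bp the worth of 1 fragment, as solved, thus grew 960 times in the vector library and 713 times in the NFX1 library. Steps under 190 bp are less certain. They come from the smoothest of 3 possible sets of whole numbers in the vector library and of 34 in the NFX1 library. In an unnamed locus of 520 bp the step was 0.111 and 0.0965.

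**Figure D1:**
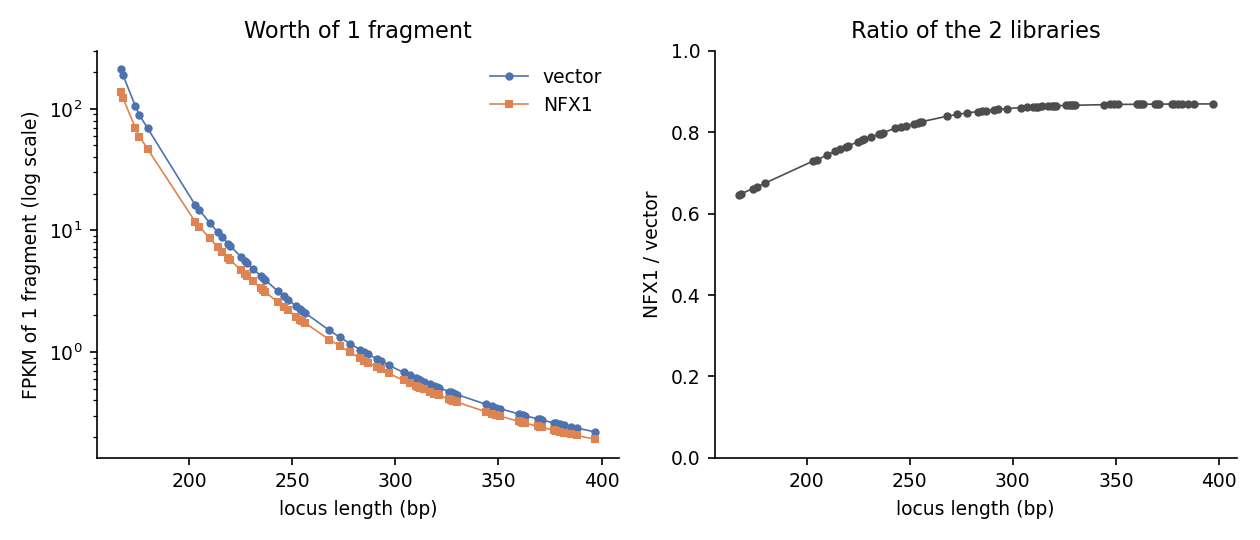
The left panel plots the FPKM of 1 fragment (log scale) against locus length in bp for the vector library (circles) and the NFX1 library (squares), 1 point per length among the 86 loci. The right panel plots the NFX1 step divided by the vector step, which falls from 0.869 at 397 bp to 0.646 at 167 bp. Steps under 190 bp are less certain than the rest.

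The inflation was unequal in the 2 libraries, so the same fragment count gave a different FPKM in each. The NFX1 step was 0.870 of the vector step at 480 to 520 bp, and the NFX1 library was therefore taken as 1.15 times as deep. The normalization settings are not given, so this scaling may differ from the ratio of sequenced fragments. The NFX1 step was 0.859 of the vector step at 300 bp, 0.818 at 250 bp, 0.729 at 203 bp and 0.646 at 167 bp. By the less certain steps at 167 bp, a locus with equal fragment numbers in both libraries would show a FPKM ratio of 0.646. The part of the ratio below 0.870 moved with locus length, and its source was not tested.

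The locus with the highest level was chr7:27498328-27498494 (hg19, 167 bp), 66564 bp past the end of the nearest named row, which holds HIBADH, an enzyme of valine breakdown. It stood at FPKM 70880 in the vector library and 43596 in the NFX1 library. These values were 335 and 319 fragments. Its change, log2 of (NFX1 FPKM + 1) over (vector FPKM + 1), was -0.70, and after scaling of the fragments by depth it was -0.27. The 95% Clopper-Pearson interval of the depth-scaled ratio was 0.708 to 0.969, which covers counting error only.

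Of the other 5 loci of highest mean FPKM, 4 had at most 11 fragments in either library. At chr9:67334102-67334268 (167 bp), 44609 bp before the start of the pseudogene AQP7P1, FPKM 1481 and 137 in the vector and NFX1 libraries were 7 and 1 fragments. At chr4:160162353-160162520 (168 bp), 26477 bp before the start of RAPGEF2, a guanine nucleotide exchange factor for Rap, FPKM 189 and 858 were 1 and 7 fragments. The locus chr9:45362626-45362799 (174 bp) lay 357335 bp past the end of LOC102723709, and its FPKM of 316 and 696 were 3 and 10 fragments. At these 3 loci the library with the lower FPKM held at most 3 fragments. The locus chr3:33318664-33318839 (176 bp) lay 94 bp before the start of FBXL2, a substrate-recognition subunit of a ubiquitin ligase, and had FPKM 621 and 650, or 7 and 11 fragments. FBXL2 itself was at FPKM 0.702 and 0.637, so the locus exceeded its neighbour on this scale while holding few fragments. The locus chr19:12098438-12098642 (205 bp), 7239 bp past the end of the zinc finger gene ZNF763, had FPKM 396 and 258 from 27 and 24 fragments. Fragment numbers of the 5 loci of 167 to 176 bp are less certain than the rest, since few loci fix the step at those lengths.

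In classes of 50 bp the median FPKM was lower in each longer class, while the median number of fragments stayed between 2 and 12 in the vector and between 6 and 9 in the NFX1 library. The 6 loci under 200 bp had median FPKM 468 in the vector and 673 in the NFX1 library, from a median of 5 and 8.5 fragments. The 23 loci of 350 bp or more had median FPKM 3.11 and 1.92 from 12 and 8 fragments. Over all 86 loci the medians were FPKM 4.75 and 5.48, or 7 and 8 fragments. The 80 unnamed loci of 400 to 520 bp had lower FPKM, 1.27 and 1.40, from more fragments, 9.5 and 11. The median over all unnamed loci of 400 bp or more was FPKM 0.452 and 0.494, and over named rows 0.195 and 0.197.

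**Figure D2:**
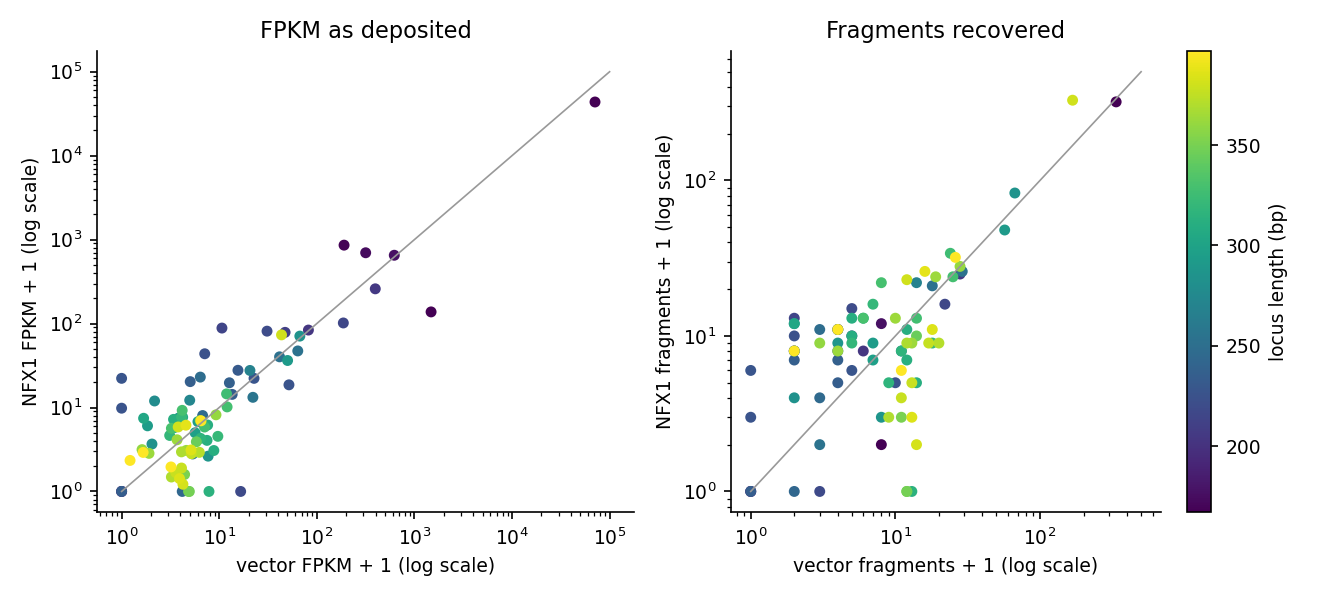
Each point is 1 of the 86 unnamed loci, coloured by length in bp, with the vector library on the horizontal and the NFX1 library on the vertical axis, both on log scales after adding 1, and a line of equal values. The left panel shows FPKM, where the shortest loci reach 70880 and 43596; the right panel shows fragments, where 53 loci have 10 or more in a library and 6 have over 30.

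Fragment numbers varied widely among the short loci. The library with more fragments had 10 or more in 53 of the 83 loci above 0 and fewer than 10 in 30, and exactly 10 or 11 in 17. Its median was 11 fragments. Under 250 bp the higher library held fewer than 10 fragments in 16 of 24 loci, and from 250 bp upward in 14 of 59. A FPKM limit does not separate these: 19 of the 55 loci at FPKM 5 or more had fewer than 10 fragments in both libraries. At 228 bp a single fragment in the vector library was already FPKM 5.44, and at 283 bp FPKM 1.05. All loci above 0 also reached FPKM 1 in a library, 83 of 83. Summed over the 86 loci there were 1310 fragments in the vector and 1524 in the NFX1 library, a ratio of 1.01 after scaling by depth. Without the 167 bp locus on chromosome 7 that held 335 and 319 of them, the sums were 975 and 1205, a ratio of 1.08.

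No short unnamed locus overlapped a named row, nor did any other pair of different spans in the table. The 28658 rows had 23388 distinct spans, and 0 pairs of them overlapped, so the absence of overlap holds for the whole table and not for the short loci in particular. Rows at the same place share 1 span instead: 8883 rows did so, and 29 unnamed loci of 400 bp or more shared the span of a named row, against 0 of the 86. Of the 803 named rows under 400 bp, 9 were above 0. Within the 86, chr7:64541300-64541618 and chr7:64541761-64542071 lay 142 bp apart, past the end of the pseudogene CCT6P3, and held 4 and 8 fragments and 4 and 12 fragments in the vector and NFX1 libraries. Of the 86, 10 lay within 1000 bp of a longer unnamed locus.

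Close to a named gene the short loci sat almost always before its start. Of the 86, 27 (31.4%) lay within 1 kb of a named row, and by the strand of that gene 22 were before the start, 1 was past the end, 3 had genes on both strands and 1 gene could not be matched to a strand. Before the start thus held 95.7% of the 23 with a clear side. At 1 to 10 kb 8 were before the start and 14 past the end, and beyond 10 kb 18 and 14. The unnamed loci of 400 bp or more that lay outside named spans had the same lean: 296 before the start and 32 past the end within 1 kb, 90.2% of the clear ones. The position is therefore shared with longer unnamed loci. The counting is not stated to use strand, so whether these RNAs run with or against the gene cannot be told apart here.

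**Figure D3:**
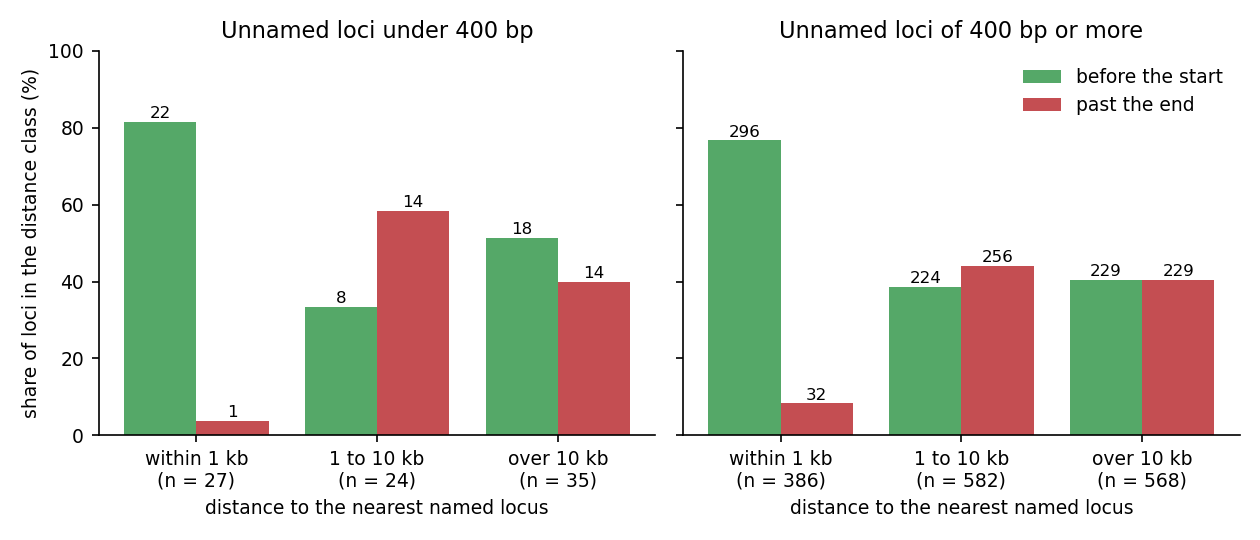
Bars give the percent of unnamed loci in each distance class that lie before the start (green) or past the end (red) of the nearest named row, for the 86 loci under 400 bp (left) and the 1536 longer loci outside named spans (right), with counts above the bars. Within 1 kb the counts are 22 against 1 and 296 against 32, and beyond that the sides are closer.

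The 22 loci before a start began 11 to 974 bp from the gene, median 133 bp, and had a median length of 323.5 bp. Their nearest gene reached FPKM 1 in 18 of the 22 cases, against 17 of 35 loci beyond 10 kb. Over all 27007 named rows, 11475 reached FPKM 1 in a library. Genes beside longer unnamed loci were not compared in this. The loci described next, up to that of NQO1, were picked after their values were seen. Of the 22, the locus with most fragments was chr4:15682898-15683277 (380 bp), 74 bp before the start of FAM200B, at FPKM 42.5 in the vector and 72.3 in the NFX1 library, or 167 and 327 fragments. The interval of its depth-scaled ratio of 1.70 was 1.41 to 2.06, while the change of FAM200B itself was 0.06 on the log2 scale. This interval excluded 1, but it covers counting error only, with 1 library on each side. The authors' own comparison, also of 1 library with 1, did not mark this locus significant (q = 0.999). RPL37A, a ribosomal protein gene at FPKM 5237 and 6026, had 2 and 3 fragments in the locus 963 bp before its start, chr2:217362311-217362556. TPM2, a tropomyosin gene at FPKM 1086 and 1272, had 19 and 8 fragments in the locus 701 bp before it, chr9:35690755-35691125. These highly expressed genes had fewer fragments beside them than FAM200B had.

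Differences at the loci were wider than those of the neighbouring genes. Within 1 kb 21 loci could be compared with a gene at FPKM 1 or more, and over them the change of the locus and of the gene had Pearson r = 0.06 and Spearman rho = 0.10, a description across loci that share both libraries. Changes of the loci ran from -1.52 to 2.62 and those of the genes from -0.35 to 0.49, both as log2 ratios of FPKM + 1. The locus chr16:69760764-69761067, 192 bp before NQO1, a quinone reductase gene, had FPKM 0.680 and 6.44, or 1 and 11 fragments, while NQO1 was at FPKM 34.5 and 37.9. The loci of TMEM160, with 1 and 3 fragments, and of UBE2J2, with 11 and 22, are those whose bases are printed above.

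The promoters next to these loci held more CpG than promoters at large. A RefSeq window of 250 bases before and 50 after the start was found for 18 of the genes with a locus before the start. It held a median of 27 CG dinucleotides, 12 to 45 by gene, against 14 over all 35116 windows, and 16 of 18 windows were above that median. The GC content was 70.2% against 58.7%. The TMEM160 window held 28 CG dinucleotides, a number that 26.2% of all windows reached, and the UBE2J2 window 39, which 8.71% reached. CG reads the same on both strands, and these counts describe the windows only. Promoters of expressed genes and those beside longer unnamed loci were not compared, so the richness is not shown to be particular to the short loci.

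At 2-fold the short loci passed the limit far more often than other rows. Among the 83 at FPKM 1 or more in a library, 15 were at least 2-fold higher in the NFX1 library (18.1%) and 17 at least 2-fold lower (20.5%), 38.6% in all. Over all 11943 rows past the same filter, 0.368% were higher and 0.226% lower, 0.594% in all. Among 385 unnamed loci of 400 bp or more it was 5.71%, and among 11475 named rows 0.148%. The median change of the short loci was 0.07, with 43 higher and 40 lower, against 0.01 over all rows, so they did not lean to 1 side. The median size of the change was 0.86 for the short loci, 0.22 for the longer unnamed loci and 0.14 over all rows.

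Many of these differences were within counting error. Of the 32 loci past 2-fold, 12 had fewer than 10 fragments in the higher library, a share like that of all short loci (30 of 83), and for 17 the interval of the FPKM ratio included 1. Over the 83, the interval excluded 1 for 17 loci, 5 higher and 12 lower, and after scaling by depth for 17, 6 higher and 11 lower. Within the short loci direction also moved with length. Under 250 bp 9 loci were called higher and 4 lower, from 250 to under 300 bp 3 and 1, and at 300 bp or more 3 higher and 12 lower. Over all rows past the filter, 0.368% were called higher and 0.226% lower. The median change was 0.63 from 200 to under 250 bp and -0.47 from 350 to under 400 bp. This did not go on in longer loci. The 71 unnamed loci of 400 to 520 bp at FPKM 1 or more had a median change of 0.16, with 41 higher and 30 lower. What part fragment number, depth or length had in these directions was not tested.

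Among loci that reached FPKM 5, the greatest increases apart from the loci at 0 in a library began from 1 fragment. At chr22:37595866-37596079 (214 bp), 4197 bp past the end of the somatostatin receptor gene SSTR3, FPKM 9.67 and 87.4 in the vector and NFX1 libraries were 1 and 12 fragments. At chr3:184429971-184430195 (225 bp), 134 bp before the start of MAGEF1, of the melanoma antigen family, FPKM 6.11 and 42.7 were 1 and 9 fragments, while MAGEF1 stood at 54.6 and 56.5. At chr17:80687939-80688216 (278 bp), 2045 bp past the end of FN3KRP, a protein deglycation kinase gene, FPKM 1.18 and 10.96 were 1 and 11 fragments. The intervals of the FPKM ratio were 1.34 to 386 on chromosome 22, 0.968 to 306 on chromosome 3 and 1.35 to 401 on chromosome 17. These upper bounds put almost no limit on the size of each increase.

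Among loci that reached FPKM 5, the greatest decreases with a value above 0 in both libraries were the AQP7P1 neighbour given above and the 3 loci that follow. At chr6:25992860-25993146 (287 bp), 5302 bp past the end of TRIM38, a ubiquitin ligase gene, FPKM 6.70 and 1.63 were 7 and 2 fragments. At chr6:159065924-159066234 (311 bp), 105 bp before the start of the dynein light chain gene DYNLT1, FPKM 7.81 and 2.07 were 13 and 4 fragments. DYNLT1 was at 111 and 103. At chr17:58603657-58603883 (227 bp), 55 bp before the start of APPBP2, FPKM 50.8 and 17.6 were 9 and 4 fragments, while APPBP2 was at 2.80 and 1.99. The interval of the FPKM ratio excluded 1 at the DYNLT1 locus, with an upper bound of 0.859. At the AQP7P1 neighbour it also did, with an upper bound of 0.718 from the less certain steps at 167 bp. The upper bounds at the TRIM38 and APPBP2 loci were 1.28 and 1.24.

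**Figure D4:**
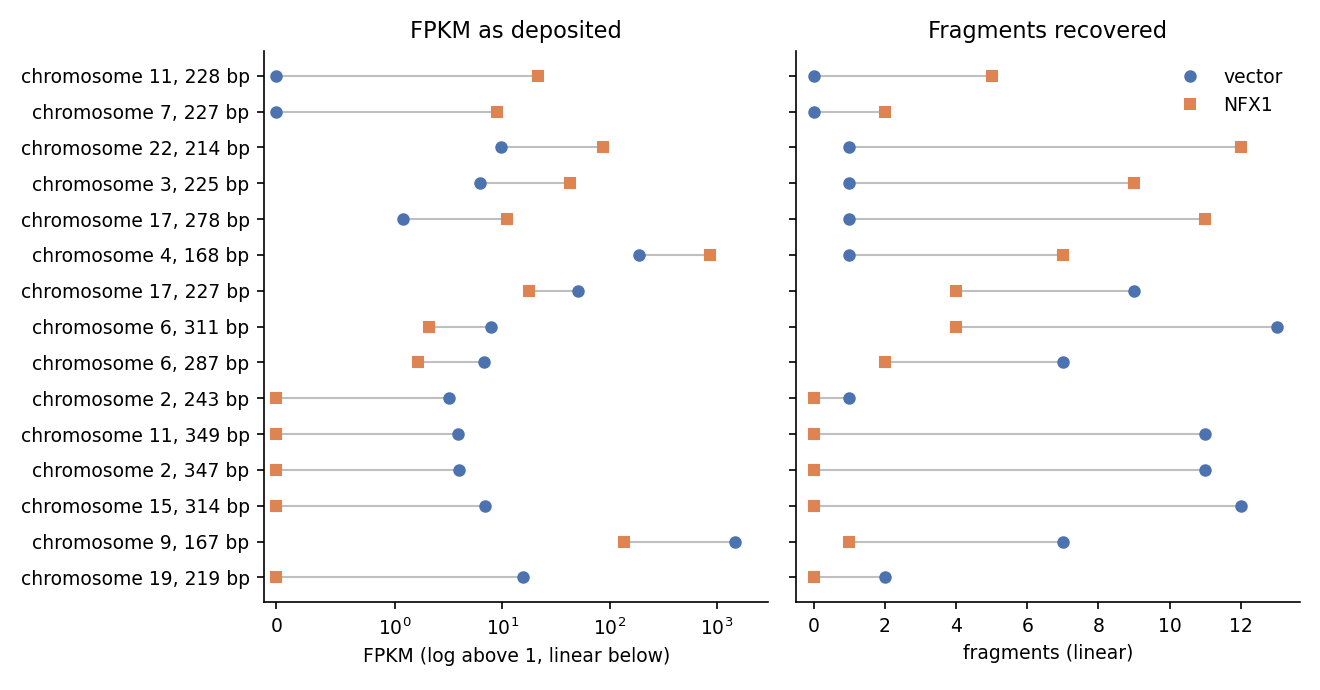
Rows are the 15 loci with the greatest changes or with 0 in a library, by chromosome and length, with the vector library as circles and the NFX1 library as squares; FPKM is on the left (log scale above 1, linear below) and recovered fragments on the right (linear scale). Values that span from 0 to over 1000 in FPKM lie between 0 and 13 fragments.

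Of the 83 loci above 0, 7 (8.43%) were listed at 0 in 1 library, beside 8.84% of all rows above 0. Of these, 2 were above 0 only in the NFX1 library (2.41%, beside 4.4% of all rows) and 5 only in the vector library (6.02%, beside 4.43%). The shares of the short loci were near those of the whole table, where named rows had 9.33%. They were above those of unnamed loci of 400 bp or more in total, at 3.33%. Of the longer loci 2.37% were above 0 only in the NFX1 and 0.96% only in the vector library. Among rows at FPKM 1 or more the share at 0 in 1 library was 0.159% over all rows and 0.0523% over named rows. It was 1.56% over unnamed loci of 400 bp or more, against 8.43% of the short loci. All 83 short loci above 0 passed the filter of FPKM 1. At 283 bp 1 fragment in the vector library was enough to pass it, while at 397 bp 1 fragment was FPKM 0.220.

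Both loci seen only in the NFX1 library were low in fragments. At chr11:63937195-63937422 (228 bp), 3126 bp from the row with FLRT1 and the ADP-ribosylhydrolase gene MACROD1, FPKM was 0 and 21.3, or 0 and 5 fragments. The interval of its FPKM ratio began at 0.717 and so included 1. At chr7:57271107-57271333 (227 bp), 23086 bp before the start of the pseudogene GUSBP10, FPKM 0 and 8.81 were 0 and 2 fragments, and the interval began at 0.147.

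Among the loci seen only in the vector library, 3 held 11 or 12 fragments and 2 held 1 or 2. At chr15:53485839-53486152 (314 bp), 319785 bp past the end of WDR72, FPKM 6.86 and 0 were 12 and 0 fragments. It was the only short locus marked significant in the authors' deposited table, with q = 0.04165, where 18 rows were so marked and 13 of these were longer unnamed loci. At chr2:127873645-127873991 (347 bp), 8741 bp before the start of BIN1, a membrane-bending protein gene, FPKM 3.94 and 0 were 11 and 0 fragments. At chr11:14926563-14926911, 12811 bp before the start of CYP2R1, a vitamin D hydroxylase gene, FPKM 3.85 and 0 were also 11 and 0 fragments. These 3 are the on-off loci whose interval of the FPKM ratio excluded 1, with upper bounds of 0.311, 0.346 and 0.346. The intervals do not allow for the number of loci looked at. Nor do they allow for loci that entered the table through the vector library. CYP2R1 was at FPKM 3.33 and 2.88 and BIN1 at 42.6 in the NFX1 library, so neither neighbour was off there.

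The last pair of vector-only loci could not be told from 0. At chr19:15937805-15938023 (219 bp), 1733 bp before the start of the long noncoding RNA gene UCA1, FPKM 15.6 and 0 were 2 and 0 fragments, while UCA1 was at 474 and 501. Its FPKM was above that of the WDR72 locus although it held fewer fragments. At chr2:95873336-95873578 (243 bp), 23271 bp past the end of ZNF2, FPKM 3.18 and 0 were 1 and 0 fragments. The upper bounds of the FPKM ratio were 4.07 and 31.6, so a difference was not detectable at this depth.

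At 3 loci both libraries were listed at 0, and the authors' deposited table gave them no test. They were chr2:48133951-48134130 (180 bp), 261 bp from MSH6 and FBXO11, chr15:77864591-77864793 (203 bp) and chr7:75747359-75747593 (235 bp), 8892 bp past the end of MDH2. By the recovered steps a single fragment there would have been FPKM 69.0, 16.2 and 4.19 in the vector library. A value between 0 and these would be less than 1 fragment. The step at 180 bp is less certain, since it was read between those of 176 and 203 bp.

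Fragment numbers beside the length limit were as follows. The 4 loci of 397 bp, the longest of the 86, had 25 and 31 fragments at chr1:954936-955332, 170 bp before AGRN, 10 and 5 at chr10:29210043-29210439, 1 and 7 at chr15:41234291-41234687, past the end of the Notch ligand gene DLL4, and 3 and 10 at chr16:57840604-57841000. Their FPKM ran from 0.220 to 5.51 in the vector and from 0.958 to 5.94 in the NFX1 library. The 4 loci just outside, of 401 to 403 bp, had 10 and 2, 13 and 11, 5 and 9, and 6 and 16 fragments in the vector and NFX1 libraries. Their FPKM ran from 1.06 to 2.76 and from 0.372 to 2.93.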

How the data were processed

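RNA of 2 PLC/PRF/5 cultures under hypoxia was sequenced, 1 library per group, grouped by the genotype label. Reads were processed with TopHat2 2.1.0 and Cufflinks 2.2.1 on hg19, per the submitters' processing notes; no source used here gives settings, annotation, library strand or fragment sizes. The table the authors deposited gives FPKM per row and library and, as the authors' own comparison, log2 fold changes, a test score, p-values and q-values per the file headers. Locus starts counted from 0 were written from 1. Change was log2 of the FPKM ratio with a pseudocount of 1, called at 2-fold among rows at FPKM 1 or more in a library; no p-value was computed, for want of replicates.

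Fragments were recovered by finding, per length, the step of which the FPKM values are whole multiples, walking from 397 bp to shorter and longer loci and predicting each step from its neighbours. Whole values within 0.1 were counted from 190 to under 400 bp and up to 30 fragments, without the 397 bp start. They were 74 of 75 (98.7%) in the vector and 71 of 72 (98.6%) in the NFX1 library. Steps under 190 bp had no such check and were taken from the smoothest possible set of whole numbers. Total depth is unknown. Only the ratio of the scaling, 1.15, was found, from 18 lengths, and it was taken as the ratio of depths. Whether the counts recovered for the sequenced libraries are exact was not tested, as their true counts are unknown. Counts under 190 bp are less certain than the rest. Ratios have 95% Clopper-Pearson intervals, for counting error only. They make no allowance for the number of loci or for entry of a locus through 1 library.

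The side of a locus came from the nearest named row's strand in GENCODE or RefSeq, by symbol, without their coordinates. The planned comparison with an overlapping gene was not possible, since no locus overlaps one, and the nearest row within 1 kb was used. Named in the text are the loci the authors marked, the 6 of highest mean FPKM, the 6 greatest increases and decreases at FPKM 5 or more, up to 6 on-off loci per direction, those beside the length limit, and their nearest rows. The members, lists and limits were chosen with earlier results of these data known. Values were computed in Python 3.11.15 with scipy 1.17.1, pandas 2.3.3 and numpy 2.4.6, and drawn with matplotlib 3.10.9. The values of 1 locus beside a gene are not reported here.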

Additional observations from a re-analysis of the deposited data

How the results depend on the processing

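With 15 loci called higher and 17 lower in the NFX1 library as reported, a pseudocount of 0.1 gave 23 higher and a pseudocount of 5 gave 4 lower. A fold limit of 1.5 gave 29 higher and 28 lower, and a limit of 4 gave 8 and 6. Requiring FPKM 5 left 8 lower, a length under 300 bp left 5 lower, and a length under 500 bp gave 26 higher. On-off loci, 2 in the NFX1 and 5 in the vector library only, became 7 NFX1-only under 500 bp. Vector-only loci fell to 2 when FPKM 5 was required and to 2 under 300 bp. Chosen after seeing the data, a minimum of 10 fragments left 9 higher and 11 lower, and 0 NFX1-only and 3 vector-only loci. The other 55 values of this kind moved by less than 1.5 times, or by less than their spread where they are not counts. No paired analysis was possible because each group is 1 library and the labels give no replicate numbers; leaving out a replicate was not possible either. Depth limits what can be said of many loci: 30 of 83 have fewer than 10 fragments in both libraries.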
